A study of Homo sapiens with 6 samples.

Results

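Forced expression of full-length NFIB was compared with an empty vector in SKNMC cells, an Ewing sarcoma line that carries the EWS-FLI1 fusion. The comparison uses 4 of the 6 RNA-seq libraries of the series, 2 with wild-type NFIB (NFIB WT) and 2 with the empty expression vector, chosen by their labels. The other 2 libraries carry NFIB ΔIDR, a construct lacking the intrinsically disordered region of the protein, and they entered the fit and served as a second reference. All cells were grown untreated in RPMI-1640 medium with fetal bovine serum, and the V5-tagged NFIB inserts were made from cDNA of the small cell lung cancer line NCI-H446 and delivered by lentivirus with puromycin selection. As a model the comparison is limited to 1 cell line, to 2 libraries a group and to a vector-driven factor of an isoform not given in the sources used here. The methods call these libraries biological duplicates, so each p value reflects only the spread between such libraries.

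NFIB belongs to the nuclear factor I family with NFIA, NFIC and NFIX. These transcription factors bind DNA as dimers at a palindrome made of paired TGGCA half-sites, and they also bind a single half-site. They are known for opening chromatin and for guiding differentiation in brain, lung, muscle and mesenchymal tissue. SKNMC cells make NFIB of their own, beside the EWS-FLI1 fusion that drives the tumour.

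The vector gene was the first check of the labels. NFIB, at chr9:14081842-14398982 on the minus strand of hg19, had 176 and 145 CPM (counts relative to the library total, scaled by the TMM method of edgeR) in the empty vector libraries and 969 and 1051 CPM in the NFIB WT libraries. Both NFIB WT libraries lay far above both controls, with a log2 fold change of 2.66 (standard error 0.10, edgeR quasi-likelihood adjusted p = 5.93e-07). Reads from the construct and from the endogenous gene cannot be told apart in these counts. The NFIB ΔIDR libraries held more, 2280 CPM on average, so the groups differ in NFIB transcript level as well as in the construct. NFIA, a paralog of NFIB, fell from 94.2 and 84.5 CPM to 41.4 and 35.3 CPM (log2 fold change -1.22, standard error 0.12, edgeR adjusted p = 0.00116). The groups did not overlap, and the NFIB ΔIDR mean of 79.7 CPM stayed near the controls. NFIC and NFIX were not called, with log2 fold changes of -0.29 and 0.19.

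MGP, a secreted inhibitor of calcification, and IGFBP5, which binds insulin-like growth factors, are the other markers of this comparison. MGP had 2.59 and 2.03 CPM in the controls and 15.6 and 17.5 CPM with NFIB WT, a log2 fold change of 2.84 (standard error 0.24, edgeR adjusted p = 0.000484). IGFBP5 had 100 and 99.8 CPM in the controls and 214 and 222 CPM with NFIB WT, for a log2 fold change of 1.12 (standard error 0.09, edgeR adjusted p = 0.000348). Both genes were separated from the controls, and both were lower with NFIB ΔIDR, at means of 1.88 and 37.9 CPM, than with NFIB WT. The difference between the constructs passed the test for each of them, with edgeR adjusted p = 0.000191 for MGP and 5.69e-07 for IGFBP5.

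The promoters of 3 called genes are shown because the half-site is what the factor is known to read. Each is the stretch of 250 bases before the start site, read 5′ to 3′ on the gene's strand from the GRCh37 (hg19) genome. The start site was taken as the middle of the 2000-base window that the deposited table gives for each gene. IGFBP5 and PARM1 rose with NFIB WT and kept their calls in every alternative analysis tried, and CTCFL is a gene that fell. Capitals mark matches to the half-site TGGCA, which was searched for on both strands. The windows are chr2:217560273-217560522 (minus) for IGFBP5, chr4:75858036-75858285 (plus) for PARM1 and chr20:56100709-56100958 (minus) for CTCFL.
IGFBP5: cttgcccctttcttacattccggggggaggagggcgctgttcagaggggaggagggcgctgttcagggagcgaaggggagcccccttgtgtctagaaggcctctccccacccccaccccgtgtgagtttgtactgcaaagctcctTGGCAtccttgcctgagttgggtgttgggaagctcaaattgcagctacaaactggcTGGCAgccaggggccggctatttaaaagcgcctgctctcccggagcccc
PARM1: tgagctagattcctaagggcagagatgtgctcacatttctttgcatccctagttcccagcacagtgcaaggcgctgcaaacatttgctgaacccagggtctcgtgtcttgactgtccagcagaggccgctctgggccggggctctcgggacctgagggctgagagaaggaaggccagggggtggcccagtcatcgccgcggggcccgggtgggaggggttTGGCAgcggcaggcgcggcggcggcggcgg
CTCFL: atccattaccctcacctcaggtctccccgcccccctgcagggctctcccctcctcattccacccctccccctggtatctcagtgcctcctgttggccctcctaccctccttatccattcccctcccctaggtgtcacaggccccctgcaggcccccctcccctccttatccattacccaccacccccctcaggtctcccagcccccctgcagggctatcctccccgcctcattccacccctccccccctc

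IGFBP5 held 2 half-sites and PARM1 held 1, while CTCFL held none. These genes do not stand for their groups: SELENBP1, which rose and kept every call, held none, and ERICH5, which fell, held 2. Over the 12304 tested genes whose start could be placed, 34.7% of windows of this length held at least 1 half-site. The share was 37.3% for the 59 placed genes that rose, NFIB aside, and 27.3% for the 22 that fell. The full palindrome, TTGGC and GCCAA with 5 bases of any kind between them, stood in 6 windows of all genes (0.0488%) and in none of those of the called genes. A match describes the letters of the window, and no binding was measured in these libraries.

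Library totals ran from 6664231 to 8465572 counts, so 1 CPM stood for 6.66 to 8.47 counts. All 8 Ewing sarcoma markers in the table were measured, with summed counts of 17556 to 20260 in the controls and 17963 to 20844 with NFIB WT. Scaled, the sums were 2397 and 2421 CPM against 2694 and 2684 CPM. CCND1 alone held 9236 and 10495 of the control counts. The 6 fibroblast markers summed to 316 and 325 CPM in the controls and 383 and 407 CPM with NFIB WT. The 3 tested epithelial markers summed to 209 and 247 CPM against 185 and 263 CPM. Of the 4 blood cell markers, PTPRC had 1829 to 2151 counts and CD3E had none. These sums do not settle cell identity. The NFIB WT pair was the widest apart: across genes the standard deviation of the log2 difference within a pair was 0.376, against 0.281 for the empty vector pair. Of the 13501 genes tested, 61 (0.452%) were called higher and 22 (0.163%) lower in the NFIB WT libraries, with an adjusted p below 0.05 (edgeR quasi-likelihood test, Benjamini-Hochberg). Folds ran from 1.34 to 13.1 among the genes that rose and from 0.226 to 0.746 among those that fell. In each of the 83 called genes the NFIB WT libraries did not overlap the controls, as was also so for 21.7% of all genes in the upward and 21.2% in the downward direction. The fit of these 4 libraries alone kept 10 of the 61 and 3 of the 22 calls. In bulk RNA, fewer cells of a kind and less RNA per cell cannot be told apart.

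**Figure D1:**
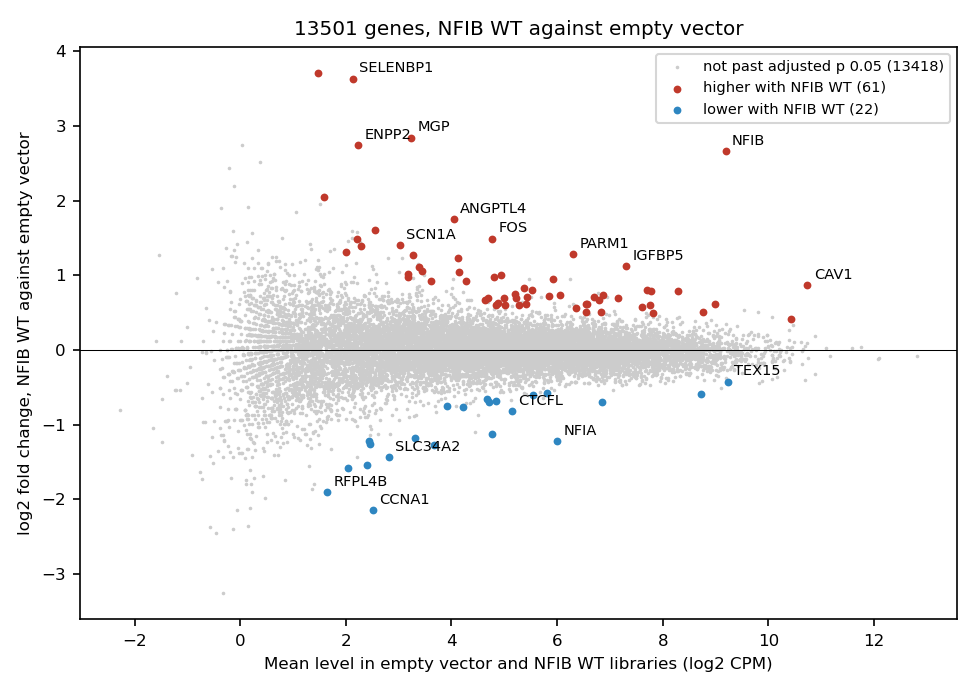
Difference between NFIB WT and the empty vector as log2 fold change (y axis) against the mean level of the 4 libraries in log2 CPM (x axis) for the 13501 genes tested. Red points are the 61 genes called higher and blue points the 22 called lower at an adjusted p under 0.05, with FAM212B (unlabelled, at 3.71), SELENBP1, MGP, ENPP2 and NFIB the highest of them and CCNA1 the lowest.

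Matrix and guidance genes made up 12 of the 83 called genes, 10 higher and 2 lower, and the other 71 are the subject here. SELENBP1, a selenium-binding protein with methanethiol oxidase activity, had 0.955 and 0.358 CPM in the controls and 8.40 and 7.86 CPM with NFIB WT. Every NFIB WT value was several times every control value, and the log2 fold change was 3.63 (standard error 0.36, edgeR adjusted p = 0.00152). The NFIB ΔIDR libraries had 0.541 and 0.295 CPM. FAM212B, also known as INKA2, an inhibitor of the kinase PAK4, had raw counts of 0 and 6 in the controls and 34 and 41 with NFIB WT. Its log2 fold change was 3.71 (standard error 0.58, edgeR adjusted p = 0.0237), the widest error among the 15 strongest rises.

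ENPP2, or autotaxin, makes the signalling lipid lysophosphatidic acid. It had 1.09 and 1.31 CPM in the controls and 8.55 and 7.86 CPM in the NFIB WT libraries (log2 fold change 2.74, standard error 0.28, edgeR adjusted p = 0.00152). The controls were far below, and NFIB ΔIDR lay in between at 2.98 and 2.36 CPM. ANGPTL4, a secreted inhibitor of lipoprotein lipase, rose from 8.60 and 6.57 CPM to 25.1 and 25.8 CPM (log2 fold change 1.75, standard error 0.16, edgeR adjusted p = 0.000796). The NFIB ΔIDR libraries stayed near the controls at 9.06 and 9.60 CPM. SULT1E1, which sulfates oestrogens, had 1.23 and 1.07 CPM in the controls and 5.55 and 4.12 CPM in the NFIB WT libraries (log2 fold change 2.05, edgeR adjusted p = 0.0253). CYP4F22, a hydroxylase of very long fatty acids used in skin ceramides, rose from 9.83 and 10.9 CPM to 22.6 and 26.1 CPM (log2 fold change 1.24, edgeR adjusted p = 0.0048). Neither gene overlapped between the groups, and with NFIB ΔIDR neither was above the empty vector, with log2 fold changes of -1.19 and -0.07.

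FOS, which pairs with JUN proteins in the factor AP-1, had 14.9 and 13.6 CPM in the controls and 43.5 and 36.8 CPM in the NFIB WT libraries (log2 fold change 1.49, standard error 0.15, edgeR adjusted p = 0.00152). The NFIB ΔIDR libraries, at 12.2 and 16.1 CPM, surrounded the controls. PGF, a growth factor of the VEGF family, rose from 2.05 and 2.75 CPM to 7.05 and 6.57 CPM (log2 fold change 1.48, edgeR adjusted p = 0.0321). SCN1A, a voltage-gated sodium channel of neurons, rose from 4.91 and 4.06 CPM to 11.2 and 12.4 CPM (log2 fold change 1.40, edgeR adjusted p = 0.0177). In both genes the higher control was well below the lower NFIB WT library.

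PARM1, a mucin-like membrane glycoprotein whose promoter is printed above, had 44.9 and 47.1 CPM in the controls and 116 and 108 CPM with NFIB WT. With a log2 fold change of 1.28 and a standard error of 0.10 its rise was large against its error (edgeR adjusted p = 0.000348). GPRC5B, an orphan membrane receptor, rose from 2.46 and 2.15 CPM to 5.70 and 5.80 CPM (log2 fold change 1.32, edgeR adjusted p = 0.0496). ANKRD29 rose from 2.18 and 3.11 CPM to 7.35 and 6.83 CPM, and FAM167A from 4.91 and 6.33 CPM to 14.8 and 12.8 CPM, with log2 fold changes of 1.40 and 1.28 (edgeR adjusted p = 0.0411 and 0.0187). All of these genes were separated between NFIB WT and the empty vector, and their NFIB ΔIDR means were below their control means.

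**Figure D2:**
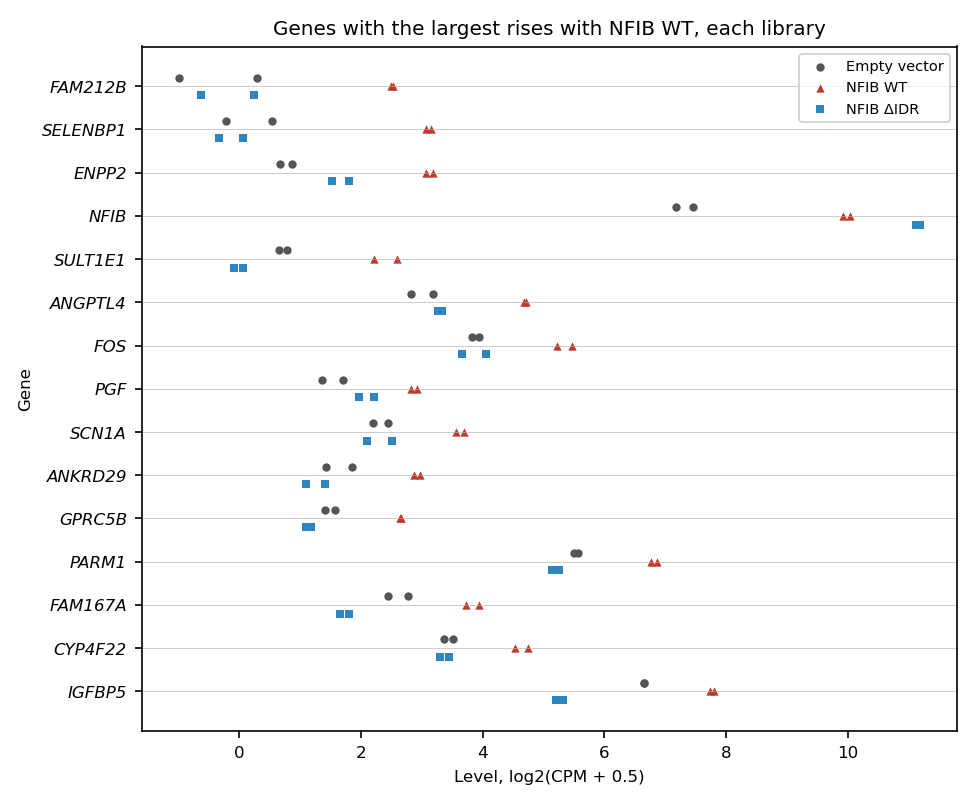
Level of the 15 genes with the largest rises among called genes outside the matrix and guidance lists, one row per gene, as log2(CPM + 0.5) on the x axis, with one point for each library. Grey circles are the empty vector, red triangles NFIB WT and blue squares NFIB ΔIDR, and the NFIB WT points lie to the right of the empty vector points in every row.

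The genes that fell formed a smaller and different group. CCNA1, the cyclin A of male meiosis, had 10.5 and 8.13 CPM in the controls and 2.10 and 2.06 CPM with NFIB WT, the largest fall among called genes (log2 fold change -2.15, standard error 0.26, edgeR adjusted p = 0.0048). Every control value was several times every NFIB WT value, and NFIB ΔIDR had 6.09 and 6.94 CPM. RFPL4B fell from 4.64 and 5.26 CPM to 1.20 and 1.42 CPM, and TRIM48 from 5.60 and 6.81 CPM to 1.65 and 2.45 CPM (log2 fold changes -1.90 and -1.58, edgeR adjusted p = 0.0221 and 0.0483). Both belong to gene families with near-identical copies, so the assignment of their reads is uncertain. SLC34A2, a sodium-phosphate cotransporter, fell from 9.96 and 10.6 CPM to 3.30 and 4.25 CPM (log2 fold change -1.43, edgeR adjusted p = 0.0135). For all 4 genes the NFIB WT libraries lay below both other groups.

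GRHL3, a transcription factor of surface epithelium, fell from 7.64 and 7.89 CPM to 2.85 and 3.61 CPM (log2 fold change -1.25, edgeR adjusted p = 0.0338). ERICH5, of which little is known, fell from 19.4 and 16.9 CPM to 5.85 and 8.89 CPM (log2 fold change -1.28, edgeR adjusted p = 0.0187). AMBN, an enamel matrix protein, fell from 7.78 and 7.41 CPM to 3.15 and 3.35 CPM (log2 fold change -1.22, edgeR adjusted p = 0.0367). The groups did not overlap in any of these genes, and AMBN was the one among them whose difference from NFIB ΔIDR did not pass (log2 difference -0.66, edgeR adjusted p = 0.102). DCHS2, a large cadherin, fell from 13.2 and 14.2 CPM to 5.999 and 6.18 CPM (log2 fold change -1.17, edgeR adjusted p = 0.0169).

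Among the more abundant genes that fell, CTCFL, the testis paralog of CTCF also known as BORIS, went from 46.8 and 43.7 CPM to 25.9 and 25.2 CPM (log2 fold change -0.82, standard error 0.11, edgeR adjusted p = 0.0114). ACSL4, which activates arachidonic acid for membrane lipids, went from 144 and 140 CPM to 97.6 and 78.4 CPM, and NR2F1, the nuclear receptor COUP-TFI, from 32.5 and 32.1 CPM to 19.9 and 20.1 CPM. Both had a log2 fold change of -0.69 and an edgeR adjusted p of 0.0253. The fall in NR2F1 was nearly the same in each library, while the ACSL4 values of the NFIB WT pair were further apart. GABRQ, a subunit of the GABA-A receptor, went from 33.9 and 36.9 CPM to 23.2 and 20.9 CPM (log2 fold change -0.69, edgeR adjusted p = 0.0366). The kinase gene STK32B went from 21.97 and 24.97 CPM to 14.4 and 13.3 CPM, and TTC23 from 17.7 and 20.1 CPM to 10.8 and 11.6 CPM, with log2 fold changes of -0.77 and -0.76 (edgeR adjusted p = 0.0359 and 0.0446). The controls stayed above the NFIB WT libraries in each of these genes.

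**Figure D3:**
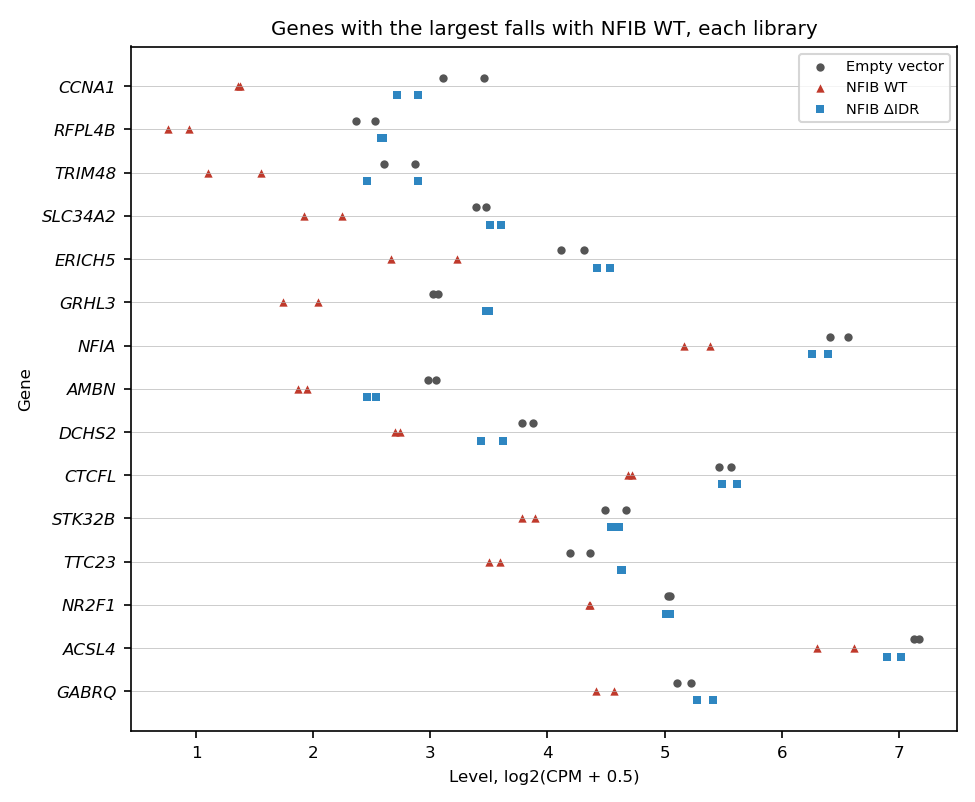
Level of the 15 genes with the largest falls among called genes outside the matrix and guidance lists, one row per gene, as log2(CPM + 0.5) on the x axis, with one point for each library. Red triangles (NFIB WT) lie to the left of grey circles (empty vector) in every row, and blue squares are NFIB ΔIDR.

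Genes were next grouped by function into 34 lists of lipid, transport, transcription factor, stress and germline genes, which together held 27 of the 83 called genes. Beside the adjusted p, a looser rule counted genes changed 1.5-fold or more whose p before adjustment was below 0.05, which 288 genes (2.13%) met upward and 236 (1.75%) downward. The median log2 fold change of all genes tested was 0.00. Of 142 lipid genes tested, 5 (3.52%, against 0.452% of all genes) were called higher and 1 (0.704%, against 0.163%) lower. The looser rule was passed by 8 (5.63%) upward and 1 (0.704%) downward, and the median log2 fold change was 0.07.

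Enzymes that release lysophosphatidic acid, ENPP2 and LIPI, were among the lipid genes that rose. In the list of phospholipid, lysophosphatidic acid and sphingolipid genes, ENPP2 was called among 43 tested. The looser rule was passed by 5 (11.6%, against 2.13% of all genes) upward and none downward, and the median log2 fold change was 0.12. SGMS2, a sphingomyelin synthase, had a log2 fold change of 0.83, CERS4, a ceramide synthase, 0.68, PLPP1, a lipid phosphate phosphatase, 0.67, and PLD2, a phospholipase, 0.65, none of them past the adjusted p. In the lipase list LIPI, a phospholipase that releases lysophosphatidic acid, rose from 76.6 and 72.2 CPM to 126 and 102 CPM (log2 fold change 0.62, edgeR adjusted p = 0.0376). LIPH, its close relative with the same activity, had 6.28 and 4.30 CPM against 9.45 and 12.1 CPM (log2 fold change 1.05, edgeR adjusted p = 0.0767). The receptor gene LPAR1 had 77.0 and 74.9 CPM against 108 and 96.5 CPM (log2 fold change 0.43, edgeR adjusted p = 0.0783). NFIB WT and control libraries did not overlap for LIPI, LIPH or LPAR1, but among these 3 genes LIPI alone passed. The choice of these genes as one route was made after their values were seen.

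In the list of fatty acid oxidation genes and PPAR receptor targets, single genes were called, in both directions. CPT1A, which admits fatty acids to mitochondria, rose from 184 and 191 CPM to 257 and 272 CPM (log2 fold change 0.50, standard error 0.08, edgeR adjusted p = 0.0297). With ANGPTL4, the lipase inhibitor named above, CPT1A made 2 of 30 tested genes (6.67%, against 0.452% of all genes) called higher. ACSL4 was the single gene of the list called lower (3.33%, against 0.163%), and the list's median log2 fold change was 0.00. In the cholesterol list DHCR7, the enzyme of the last step of cholesterol synthesis, rose from 95.0 and 92.6 CPM to 141 and 126 CPM (log2 fold change 0.51, edgeR adjusted p = 0.0419). It was the single call among 25 genes, none passed the looser rule and the list's median was 0.05. None of 19 fatty acid synthesis and desaturation genes was called or passed the looser rule, with SCD at a log2 fold change of 0.13.

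Some called genes with lipid or energy roles were on no list and were picked out after their values were seen. STAR, which carries cholesterol into mitochondria, rose from 6.28 and 5.86 CPM to 12.2 and 11.8 CPM (log2 fold change 0.98, edgeR adjusted p = 0.0338). ABHD6, a monoacylglycerol lipase, rose from 73.4 and 83.3 CPM to 128 CPM in both NFIB WT libraries (log2 fold change 0.71, edgeR adjusted p = 0.0114). CYP26B1, which degrades retinoic acid, had a log2 fold change of 0.60 (edgeR adjusted p = 0.0439). Glycogen was represented by PPP1R3B, a glycogen-targeting subunit of protein phosphatase 1, and by GYG2, a glycogenin, with log2 fold changes of 0.95 and 0.56 (edgeR adjusted p = 0.025 and 0.0324). In the list of insulin-like growth factor genes, 3 of 15 tested (20%, against 0.452% of all genes) were called higher, namely IGFBP5, IGFBP4 and PAPPA. IGFBP5 is a marker given for this comparison, so the count is no separate support. IGFBP4 had 29.9 CPM in both controls and 54.1 and 51.9 CPM with NFIB WT. PAPPA, a protease of insulin-like growth factor binding proteins, had 414 and 393 CPM against 627 and 606 CPM. IGFBP4 and PAPPA had log2 fold changes of 0.83 and 0.61 (edgeR adjusted p = 0.0253 and 0.00682). IGFBP3 had a log2 fold change of -1.12 but few counts and an edgeR adjusted p of 0.248.

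**Figure D4:**
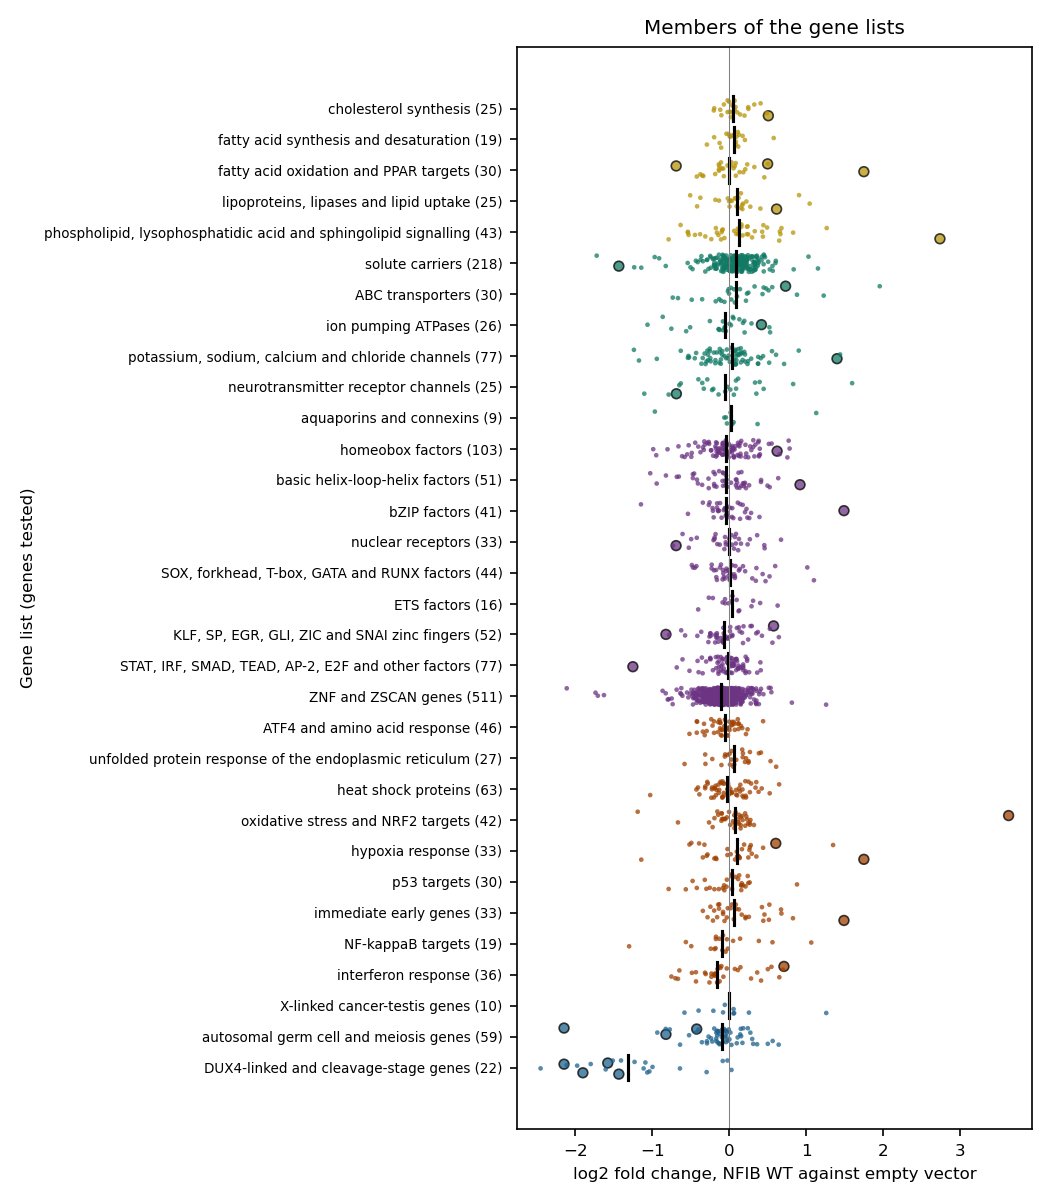
Difference between NFIB WT and the empty vector as log2 fold change (x axis) for every tested member of the lists with at least 5 tested genes (y axis, number tested in brackets), coloured by family. Large outlined points passed an adjusted p of 0.05 and black bars are list medians, and the DUX4-linked list at the bottom has its median at -1.32 while the medians of the other lists lie close to 0.

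Transport genes showed few and scattered calls. Of 385 tested, 3 (0.779%, against 0.452% of all genes) were called higher, SCN1A and ABCA5 among them. SLC34A2 and GABRQ, or 2 (0.519%, against 0.163%), were called lower. The looser rule was passed by 13 (3.38%) in each direction, against 2.13% upward and 1.75% downward of all genes. The median log2 fold change was 0.06. SCN4B, an auxiliary subunit of sodium channels such as SCN1A, had 2.73 and 2.39 CPM against 8.40 and 5.67 CPM (log2 fold change 1.44, edgeR adjusted p = 0.0513). Of 77 ion channel genes SCN1A was the single call. Of 218 solute carriers, 146 had a log2 fold change above 0 and none was called higher. Their median ratio to the controls was 0.18 (log2) in NFIB WT replicate 1 and -0.01 in replicate 2, so the excess rested on 1 library.

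ABCA5, ABCA8 and ABCA10, transporters of the A subfamily, are neighbours on chromosome 17. ABCA5 (chr17:67240452-67323385, minus strand) rose from 53.4 and 45.9 CPM to 90.1 and 74.96 CPM (log2 fold change 0.73, standard error 0.12, edgeR adjusted p = 0.0253). ABCA8 (chr17:66863430-66951533) had 1.23 and 1.07 CPM against 4.65 and 4.38 CPM (log2 fold change 1.96, edgeR adjusted p = 0.0559), and ABCA10 (chr17:67143355-67240987) 6.28 and 3.70 CPM against 14.1 and 9.27 CPM (log2 fold change 1.23, edgeR adjusted p = 0.0767). The NFIB WT libraries were above the controls in all of these, and ABCA6 and ABCA9 had log2 fold changes of 0.45 and 0.56 without passing either rule. Of 30 ABC transporters, 4 (13.3%) passed the looser rule upward and 1 (3.33%) downward, against 2.13% and 1.75% of all genes. With NFIB ΔIDR, ABCA10 had 10.96 and 9.89 CPM, and its difference from NFIB WT did not pass the test (log2 difference 0.15, edgeR adjusted p = 0.729), whereas that of ABCA8 did (log2 difference 1.81, edgeR adjusted p = 0.0169).

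Of 932 transcription factor genes tested, 5 (0.536%) were called higher, namely NFIB, FOS, ATOH8, HOXB13 and IKZF2. NFIA, GRHL3, CTCFL and NR2F1, or 4 (0.429%), were called lower. Over all genes these shares were 0.452% and 0.163%. The looser rule was passed by 13 (1.39%) upward and 26 (2.79%) downward, against 2.13% and 1.75% of all genes. The median log2 fold change was -0.07. ATOH8, a basic helix-loop-helix factor, rose from 9.28 and 7.65 CPM to 15 and 16.9 CPM (log2 fold change 0.92, edgeR adjusted p = 0.0419). HOXB13, a posterior homeobox factor, rose from 21.97 and 24.3 CPM to 37.2 and 34.3 CPM (log2 fold change 0.62, edgeR adjusted p = 0.0447). IKZF2, the zinc finger factor Helios, rose from 162 and 152 CPM to 259 and 211 CPM (log2 fold change 0.58, edgeR adjusted p = 0.0419). None of the 3 overlapped between the groups, and each was lower with NFIB ΔIDR than with NFIB WT. Several developmental factors ended just outside the adjusted threshold: SNAI2, a driver of mesenchymal change, at a log2 fold change of 0.65 (edgeR adjusted p = 0.0513), NR2F2, the paralog of NR2F1, at -0.52 (edgeR adjusted p = 0.0542) and TFAP2A, which encodes AP-2α, at -0.68 (edgeR adjusted p = 0.0602).

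The ZNF and ZSCAN genes, most of them KRAB-type repressors of repeats, mostly had small negative values. Of 511 tested, 366 had a log2 fold change below 0, the median was -0.11, and no gene was called, with 10 past the looser rule downward and 1 upward. The median ratio to the controls was -0.14 in NFIB WT replicate 1 and -0.09 in replicate 2, and the median of the list with NFIB ΔIDR was 0.04. At the 10 downward genes of 511 (1.96%) the share was near that of all genes.

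Stress genes as a family moved little. Of 318 tested, 5 (1.57%, against 0.452% of all genes) were called higher, namely SELENBP1, ANGPTL4, FOS, LOX and IFI44L, and none lower. ANGPTL4 and FOS were also counted above among lipid and transcription factor genes. The looser rule was passed by 11 (3.46%) upward and 5 (1.57%) downward, against 2.13% and 1.75% of all genes. Log2 fold changes were above 0 in 154 members and below 0 in 164, with a median of -0.01. Among immediate early genes, FOS was the single call of 33, and NR4A3, CYR61 and CTGF had log2 fold changes of 0.67, 0.68 and 0.83 without passing the adjusted p. JUN, the partner of FOS in AP-1, had 49.96 and 58.4 CPM against 47.4 and 50.9 CPM, and the groups overlapped. In the hypoxia list ANGPTL4 and LOX were called among 33 genes (6.06%, against 0.452% of all genes). LOX, a collagen crosslinking enzyme, had a log2 fold change of 0.61, whereas the glucose transporter gene SLC2A3 had -1.14 (edgeR adjusted p = 0.093).

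In the interferon list IFI44L rose from 29.9 and 35.5 CPM to 55.0 and 52.4 CPM (log2 fold change 0.71, edgeR adjusted p = 0.0253), while 25 of its 36 tested genes were below 0 and the median was -0.15. IFI44L had 9.47 and 9.30 CPM with NFIB ΔIDR, so the 3 groups were fully ordered. B2M, a subunit of MHC class I, had 365 and 368 CPM against 584 and 455 CPM (log2 fold change 0.50, edgeR adjusted p = 0.0747), and IFI44, a relative of IFI44L, had a log2 fold change of 0.41 (edgeR adjusted p = 0.0868), with no overlap of the groups in either. IFIT1 and RSAD2, both induced by interferon, had log2 fold changes of -0.75 and -0.67 that did not pass the adjusted p. The summed level of the list was 987 and 1007 CPM in the controls and 1211 and 1110 CPM with NFIB WT. B2M alone held 365 and 368 CPM of the control sums and 584 and 455 CPM of the NFIB WT sums. No gene of the unfolded protein response (27 tested), ATF4 response (46), heat shock (63), p53 (30), NF-kappaB (19) or metallothionein (1) lists was called. HSPA5, the sensor chaperone of the endoplasmic reticulum, had 588 and 636 CPM against 546 and 688 CPM. SELENBP1 was the single call among 42 oxidative stress genes, and HMOX1 and NQO1 had log2 fold changes of -0.21 and -0.15.

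Germline genes showed calls in 1 direction. Of 90 tested, none was called higher and 6 (6.67%, against 0.163% of all genes) lower, namely CCNA1, CTCFL, TEX15, SLC34A2, RFPL4B and TRIM48. By the looser rule 1 (1.11%, against 2.13% of all genes) passed upward and 19 (21.1%, against 1.75%) downward, and the median log2 fold change was -0.14. Among these, 4 of the 6 calls and 16 of the 19 were on the DUX4-linked list. Most of its members passed the low-count filter through libraries where they were higher, and the lists were chosen with earlier results known. The shares therefore describe the lists and are no support for a direction. TEX15, needed for meiotic recombination and transposon silencing in sperm precursors, was abundant, at 699 and 684 CPM in the controls and 502 and 530 CPM in the NFIB WT libraries (log2 fold change -0.42, standard error 0.08, edgeR adjusted p = 0.0444). Its NFIB ΔIDR libraries, at 545 and 591 CPM, were below the controls too, and the difference of TEX15 between the constructs did not pass the test (log2 difference -0.14, edgeR adjusted p = 0.286). Of 59 autosomal germ cell and meiosis genes, 3 (5.08%, against 0.163% of all genes) were called lower. The looser rule was passed downward by 4 (6.78%, against 1.75% of all genes). X-linked cancer-testis genes were little expressed, with 10 of 52 tested, and none was called.

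Genes linked to DUX4, the factor that switches on the cleavage-stage programme of the early embryo, accounted for most of the germline signal. Of 22 tested, 4 (18.2%, against 0.163% of all genes) were called lower, namely CCNA1, SLC34A2, RFPL4B and TRIM48. The looser rule was passed downward by 16 (72.7%), against 1.75% of all genes. The 4 calls became 0 without empty vector replicate 1, 1 in the fit of 4 libraries and without empty vector replicate 2 or either NFIB ΔIDR replicate, and 9 without NFIB WT replicate 2, while the 16 became 10 with DESeq2 or without empty vector replicate 1. At a minimum count of 30, which left 11312 genes tested, 6 members passed the looser rule downward. The median log2 fold change of the 22 was -1.32, and it was 0.18 with NFIB ΔIDR. The median log2 ratio to the controls was -1.07 in NFIB WT replicate 1 and -0.99 in replicate 2. Most of these genes passed the low-count filter through the empty vector and NFIB ΔIDR libraries, where they were higher, so the counts of called members describe the list and are not support for its direction. Summed over all 43 members in the table, filtered or not, the level was 83.1 and 86.8 CPM in the controls, 39.4 and 44.3 CPM with NFIB WT, and 107 and 116 CPM with NFIB ΔIDR. The 21 members below the filter had 63 and 50 raw counts in the controls and 26 and 31 with NFIB WT.

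Single DUX4-linked members rested on few reads. ZSCAN4, the best known cleavage-stage factor, had raw counts of 16 and 13 in the controls and 1 and 5 with NFIB WT (log2 fold change -2.11, edgeR adjusted p = 0.21). LEUTX, a homeobox factor of the early embryo, had 16 and 19 against 3 and 5 (log2 fold change -1.98, edgeR adjusted p = 0.0849). MBD3L2 had 13 and 6 against 2 and 1 (log2 fold change -2.45, edgeR adjusted p = 0.269). Against the others, PRAMEF1 had 54 and 99 raw counts in the controls and 61 and 77 with NFIB WT, and KHDC1 27 and 48 against 38 and 32, so in these members the groups overlapped. Among the 9 members with a mean of at least 20 counts, 6 passed the looser rule downward, against 1.75% of all genes, and the median was -1.43. That mean was taken over all 6 libraries, including those where these genes were higher, so the 9 are no separate support. The PRAMEF, TRIM, MBD3L and RFPL members have near-identical copies between which reads may be split.

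**Figure D5:**
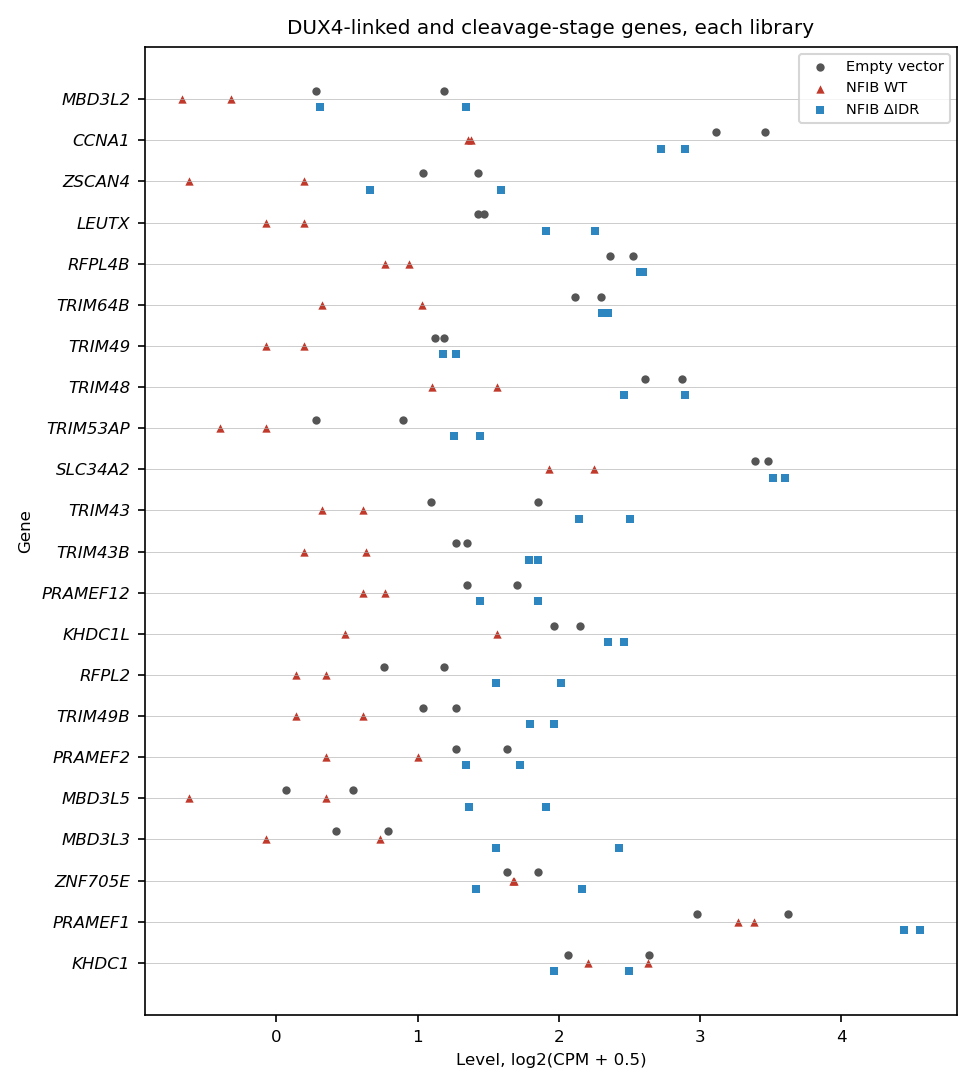
Level of the 22 tested DUX4-linked and cleavage-stage genes, one row per gene, as log2(CPM + 0.5) on the x axis, with one point for each library. In most rows the red triangles (NFIB WT) lie to the left of both the grey circles (empty vector) and the blue squares (NFIB ΔIDR), and in the rows of PRAMEF1 and KHDC1 they overlap the empty vector.

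Genes outside all of these families completed the picture. CAV1, the coat protein of caveolae, rose from 1242 and 1180 CPM to 2536 and 1879 CPM (log2 fold change 0.87, standard error 0.12, edgeR adjusted p = 0.0114). The groups were separate, but the NFIB WT libraries were far from each other. NPY1R, a neuropeptide Y receptor, behaved alike, with 232 and 225 CPM against 450 and 339 CPM (log2 fold change 0.79, edgeR adjusted p = 0.0187). ASPH, an aspartate hydroxylase, was more even, with 156 and 150 CPM against 266 and 267 CPM (log2 fold change 0.81, standard error 0.08, edgeR adjusted p = 0.00158). The noncoding RNA KCNQ1OT1, an imprinted transcript antisense to KCNQ1, had a log2 fold change of -0.58 (edgeR adjusted p = 0.0365), and since the strand setting of the counting is not given its reads may include those of its partner. The synaptic gene RIMS2 and the actin regulator CARMIL1 had log2 fold changes of -0.65 and -0.60.

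The constructs were also tested against each other. This test, in which 1446 genes (10.7%) differed in either direction, used the same NFIB WT libraries, so its calls are no independent check of those above. In it 59 of the 61 genes that rose were also called higher in NFIB WT than in NFIB ΔIDR. The exceptions were NFIB itself, which was higher with NFIB ΔIDR, and STAR (log2 difference 0.49, edgeR adjusted p = 0.084). In 50 of the 61 the NFIB ΔIDR value was itself below the empty vector, as in IGFBP5 at a log2 fold change of -1.40. The difference between the constructs in such genes is therefore not the rise with NFIB WT alone. Of the 22 genes that fell, 19 were also lower than with NFIB ΔIDR, and AMBN, TMEM255A and TEX15 were not called.

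Small nuclear and nucleolar RNAs, which guide RNA modification and splicing, had counts that moved with single libraries. Of 178 tested, none was called, 27 (15.2%, against 2.13% of all genes) passed the looser rule upward and none downward. The median log2 fold change was 0.36. The median ratio to the controls was 0.55 in NFIB WT replicate 1 and 0.10 in replicate 2. Without NFIB WT replicate 1 the count fell to 7 and the median to 0.10, and without NFIB WT replicate 2 the count was 75. Without empty vector replicate 2 the count was 3 with a median of 0.33, and DESeq2 gave a count of 6. The part of library preparation in this difference was not tested.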

How the data were processed

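RNA-seq was measured in 6 libraries of SKNMC cells, 2 each with an empty vector, NFIB WT and NFIB ΔIDR, made from total RNA with the CORALL kit and sequenced on a NextSeq 500. The authors deposited raw counts of reads per gene for each library, without normalization; their processing notes name CASAVA 2.19, STAR 2.4.0h, featureCounts and hg19. Not given in the sources used here were the strand setting, the rule for multi-mapping reads and any use of UMIs.

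Groups were taken from the sample titles. Genes were kept by filterByExpr (minimum count 10, minimum total 15), which left 13501 of 22604 genes, and scaled by TMM. The test was edgeR's quasi-likelihood F test (edgeR 4.0.16, R 4.3.3) in 1 fit of all 6 libraries, with 3 residual degrees of freedom. All tested genes entered the Benjamini-Hochberg adjustment, and the standard error is the log2 fold change divided by the square root of F. The fit was tested on simulated data. Alternatives were DESeq2 1.42.0, limma-voom (limma 3.58.1), other scalings and filters, 4 libraries only, a replicate block, and leaving out each library. Total counts limit the precision of genes under about 1 CPM.

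The genes named with every library's value are NFIB, NFIA, MGP and IGFBP5 and, outside the matrix and guidance lists, the 15 largest and 15 smallest log2 fold changes among called genes with separate groups and at least 1 CPM in the higher group. The 3 tested genes of lowest p in each list, and other called genes, were named too. Uncalled genes named beyond these, such as JUN, HSPA5, IFIT1 and the single DUX4-linked members, were picked after their values were seen. Members and lists were chosen with earlier results of these data known. Some items are not reported here. Promoters were read from GRCh37 with GENCODE v44lift37 strands.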

Additional observations from a re-analysis of the deposited data

How the results depend on the processing

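All 83 called genes kept the sign of their change under the 16 alternatives, and NFIB, NFIA, MGP, IGFBP5, SELENBP1, ENPP2, ANGPTL4 and PARM1 kept their calls under each of them. FOS lost its call without empty vector replicate 2, CCNA1 without empty vector replicate 1 and CYP4F22 without either. FAM212B was called in 12 of the 16 alternatives, GPRC5B and TRIM48 in 7, TTC23 in 8 and the other genes named for the 30 largest changes in 10 or 11, with losses in the fit of 4 libraries and without an empty vector or NFIB ΔIDR library, and for some also with DESeq2, limma-voom, upper quartile factors or a minimum count of 30. Of the 61 higher and 22 lower calls at the adjusted p, the fit of the 4 libraries alone gave 10 and 3, no filter on low counts 281 and 260, and the replicate block 126 and 62. The block is a number shared by libraries: correlations of same-numbered deviations were 0.153, 0.0156 and 0.0539, so no pairing was assumed. Leaving out 1 library gave 8 to 1518 higher and 1 to 1533 lower calls: 8 and 1 without empty vector replicate 1, 8 and 3 without replicate 2, 10 and 3 without either NFIB ΔIDR replicate, 295 and 219 without NFIB WT replicate 1 and 1518 and 1533 without NFIB WT replicate 2. Such a fit assumes that the lone library varies like the other groups. DESeq2 gave 56 and 16, among which were 44 of the 61 and 11 of the 22. It kept the calls of 11 of the 15 largest rises and 7 of the 15 largest falls. By the looser rule, 288 higher and 236 lower genes became 146 and 105 with DESeq2, the lower count became 138 at a minimum count of 30 and 365 without a filter, and leaving out 1 library gave 258 to 528 higher and 200 to 624 lower genes, the upper ends without NFIB WT replicate 2. The direct test against NFIB ΔIDR, whose alternatives were chosen after seeing the data, called 29 of the 30 named genes with the largest changes, and 16 to 29 when 1 library was left out, with 17 without NFIB ΔIDR replicate 1 and 16 without replicate 2. The DUX4-linked list had a median log2 fold change of -1.65 without NFIB WT replicate 2 and -1.24 without empty vector replicate 1. The cause of these shifts was not tested.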
